A study of Mus musculus with 6 samples.

Results

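The enzymes and helper proteins that turn arachidonic acid into prostaglandins, thromboxane and leukotrienes were followed in mouse bone marrow-derived macrophages (BMMs) exposed to cartilage fragments. They are 10 of the 24394 gene symbols in the deposited tables, and they were chosen by name as Pla2g4a, Ptgs1, Ptgs2, Ptges, Ptges2, Ptges3, Tbxas1, Alox5, Alox5ap and Lta4h. The cells came from marrow of C57BL/6 mice, labelled postnatal day 28, and were grown for 7 days in 50 ng/ml of macrophage colony-stimulating factor. The 3 control libraries are of macrophages cultured alone, and the 3 stimulated libraries are of macrophages given 5 cartilage fragments per cell for 24 h. Both groups share the strain, the age and the growth factor. The cartilage was taken from the femoral heads of the same mice as the marrow, so the cultures could hold cartilage cells as well as macrophages. Whether the 3 cultures of a group came from separate animals is not stated, so every p-value below measures the spread between these libraries, which may be technical.

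Cytosolic phospholipase A2 (Pla2g4a) frees arachidonic acid from membranes. The cyclooxygenases Ptgs1 and Ptgs2 turn it into prostaglandin H, which is shared by several competing end enzymes. The prostaglandin E synthases Ptges, Ptges2 and Ptges3 make prostaglandin E, a mediator of pain, fever and vascular leak, and thromboxane synthase (Tbxas1) makes the platelet activator thromboxane. On the other branch 5-lipoxygenase (Alox5), helped by its activating protein (Alox5ap), makes leukotriene A, and Lta4h converts that into leukotriene B, which attracts neutrophils. In macrophages Ptges is known as the synthase that inflammatory signals induce, often together with Ptgs2, while Ptges2 and Ptges3 are known as steadily expressed.

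Ptges was the 1 member of 10 that was called, and it rose with cartilage fragments by about 10.0-fold. None of the other 9 passed the test, in either direction, where 0.366% of all 10393 tested genes were called. Of the enzymes that supply prostaglandin E synthases with substrate, neither Pla2g4a nor Ptgs1 nor Ptgs2 was called. Ptgs2 lay lower in all 3 stimulated libraries than in all 3 controls, as did 6.89% of all tested genes. The leukotriene members and thromboxane synthase were not called either.

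The sequences just upstream of the start sites are shown for the 3 synthases that make the same product and for Ptgs2, because Ptges moved apart from them. Each line holds the 250 bases before the start site of the RefSeq promoter entry (assembly GRCm38.p6), 5′ to 3′ on the strand of the gene. Capitals mark GC boxes (GGGCGG), kappa B-like matches (GGG, any 5 bases, then CC) and TATA boxes (TATAAA), on either strand.
Ptges: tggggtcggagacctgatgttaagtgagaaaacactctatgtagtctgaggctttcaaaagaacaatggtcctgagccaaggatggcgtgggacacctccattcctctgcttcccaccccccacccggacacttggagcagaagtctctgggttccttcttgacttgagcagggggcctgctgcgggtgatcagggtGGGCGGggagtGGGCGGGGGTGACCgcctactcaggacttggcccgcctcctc
Ptges2: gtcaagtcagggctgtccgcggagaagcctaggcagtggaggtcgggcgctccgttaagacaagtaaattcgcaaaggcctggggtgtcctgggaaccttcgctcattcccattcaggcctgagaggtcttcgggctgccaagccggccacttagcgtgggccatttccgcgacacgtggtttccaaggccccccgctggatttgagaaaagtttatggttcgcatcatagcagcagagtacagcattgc
Ptges3: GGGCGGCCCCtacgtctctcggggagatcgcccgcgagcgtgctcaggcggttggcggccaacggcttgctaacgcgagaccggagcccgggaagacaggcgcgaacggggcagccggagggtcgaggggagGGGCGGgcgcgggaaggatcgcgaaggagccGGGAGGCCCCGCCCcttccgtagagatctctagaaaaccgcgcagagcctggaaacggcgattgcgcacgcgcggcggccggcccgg
Ptgs2: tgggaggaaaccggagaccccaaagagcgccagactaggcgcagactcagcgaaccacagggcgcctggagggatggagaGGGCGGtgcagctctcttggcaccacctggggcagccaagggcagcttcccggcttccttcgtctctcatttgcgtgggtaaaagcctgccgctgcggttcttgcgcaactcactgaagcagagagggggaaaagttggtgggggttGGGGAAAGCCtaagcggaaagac
The Ptges window is chr2:30903298-30903547 on the minus strand. The Ptges2 window is chr2:32395640-32395889, the Ptges3 window is chr10:128058732-128058981 and the Ptgs2 window is chr1:150099781-150100030, all on the plus strand. An annotated Ptges transcript of GENCODE M21 starts farther upstream, so that the Ptges window lies within the annotated span of the gene. The Ptgs2 transcript measured here (NM_011198) starts at chr1:150100124, downstream of the end of the Ptgs2 window. The bases between them were not searched, so the Ptgs2 matches do not describe the stretch just before that start. The Ptges window held 2 GC boxes, starting 53 and 42 bases before the start site, and 1 kappa B-like match starting 38 bases before it, which overlaps the nearer GC box. The Ptgs2 window held 1 GC box and 1 kappa B-like match, and the Ptges3 window held 3 of each, which overlap in part. The Ptges2 window held neither. None of the 4 windows held a TATA box as spelled here. These letters are common: of 32851 windows of the same length, 32.7% held a GC box, 45.8% a kappa B-like match and 12.4% a TATA box. The matches are a description of the letters, and the motifs were chosen with the genes in view.

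Of the 10 members, 9 had a RefSeq promoter entry, and Alox5ap had none. Searched in the same way, the AP-1 letters TGANTCA were found in 6.75% of all windows, the hypoxia response core ACGTG in 16.6%, CCAAT in 33.8% and the EGR1 letters GCGTGGGCG in 0.536%. Of the windows shown, those of Ptges, Ptges3 and Ptgs2 held none of these 4. The Ptges2 window held 2 matches of the hypoxia response core, which overlap. For Ptgs2 the bases between the window and the start of the measured transcript were not searched.

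The 6 libraries held between 699000 and 776000 fragments each, as estimated from the deposited coverage. The Methods state a far larger number of mapped reads per sample, and the difference was not tested; the counting errors given here are those of the deposited values. FPKM, the unit used throughout, divide the fragments of a transcript by its length and by the depth of its library, so that levels of different genes can be set side by side. All 10 macrophage markers examined were present in every library, and 2 of them were called, both higher with fragments. They were Adgre1 (350 to 373 FPKM in the controls and 524 to 566 FPKM with fragments) and Cd14 (112 to 123 FPKM and 168 to 198 FPKM). Of 13 cartilage cell markers, 8 were listed at 0 in every library, and the sum of all 13 was 1.54 to 4.22 FPKM in the controls and 1.18 to 2.82 FPKM with fragments. Of the 8 fibroblast markers examined 6 were above 0 in every library, and their sum was 157 to 170 FPKM in the controls and lower, 105 to 119 FPKM, with fragments. Of 9 neutrophil markers 7 were above 0 in every library, with overlapping sums of 979 to 1085 FPKM and 875 to 1231 FPKM. None of the 13 cartilage cell markers averaged 1 FPKM over the 6 libraries, so none of them was tested. Of the fibroblast and neutrophil markers, only those averaging 1 FPKM or more were tested, and none of these was called. The part of these other cells in the results below was not tested. Platelet markers, 7 in number, summed to 3.33 to 6.16 FPKM in the controls and 0.947 to 4.15 FPKM with fragments, 8 mast cell or basophil markers to 1.07 to 2.14 FPKM and 2.08 to 5.48 FPKM, and 6 dendritic cell markers to at most 1.37 FPKM and 3.00 FPKM. Lymphocyte and red cell markers, 6 of each, were all listed at 0. The Methods describe the mice as male, while Xist was present at 19.8 to 23.6 FPKM and the Y-linked Ddx3y, Eif2s3y, Kdm5d and Uty were listed at 0 in all 6 libraries.

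Ptges, or microsomal prostaglandin E synthase-1, is a glutathione-dependent membrane enzyme that turns prostaglandin H into prostaglandin E. Its single reference transcript in the files (NM_022415) lies at chr2:30889471-30903297 on mm10, minus strand. Ptges measured 1.51, 1.55 and 1.97 FPKM in control replicates 1 to 3, and 16.8, 19.1 and 14.7 FPKM in the stimulated replicates 1 to 3. The lowest stimulated library thus stood far above the highest control, and the 3 values of each group lay close to each other. The group means were 1.68 ± 0.256 FPKM in the controls and 16.9 ± 2.21 FPKM with cartilage fragments (SD, n = 3 each). On the log2(FPKM + 0.1) scale the difference was 3.25 (SE 0.254, 95% confidence interval 2.67 to 3.84), with an adjusted p of 0.00189 by limma. Over all 10393 genes tested, 0.366% were called in either direction and 0.308% were called higher and 0.0577% lower. In bulk RNA a higher level per cell and a larger number of cells that express the gene cannot be told apart.

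These levels rest on few fragments. About 4, 4 and 5 fragments fell on Ptges in the control libraries, against 43, 47 and 35 in the stimulated libraries. Scaled to the depth of the libraries, the 126 stimulated fragments against 13 control fragments gave a ratio of 10.1, with an exact 95% interval of 5.72 to 19.6 that covers counting error only. The direction is clear at this depth, while the size of the rise is known only within that interval. In the controls 7.16% of all tested genes had a lower mean FPKM than Ptges, and with fragments 62.4% did. The rise was called when any 1 of the 6 libraries was left out, with log2 differences between 3.16 and 3.37.

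**Figure D1:**
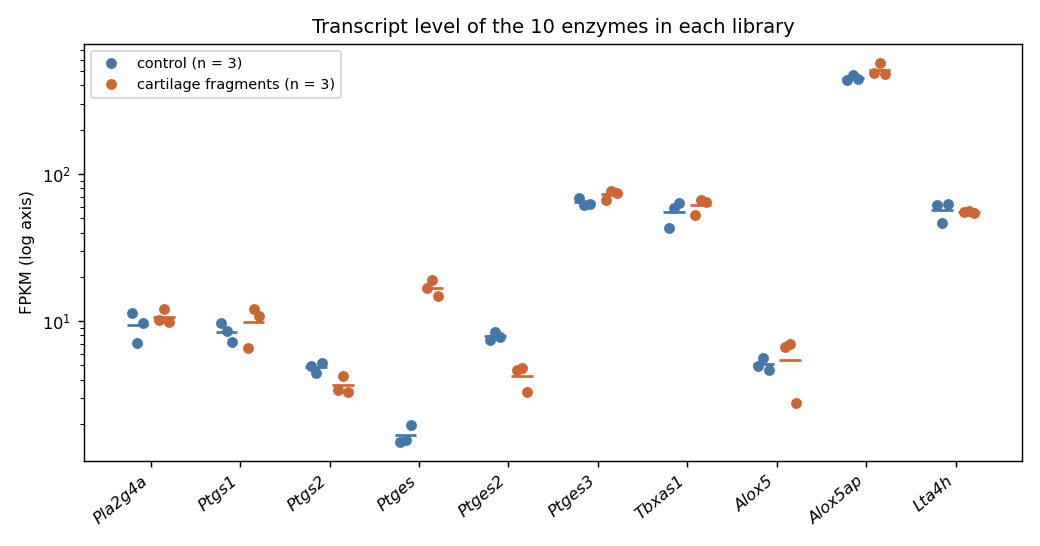
FPKM of the 10 enzymes (log axis) in the 3 control libraries (blue) and the 3 libraries with cartilage fragments (orange). Each point is 1 library and each horizontal line a group mean. Ptges moved from 1.51 to 1.97 FPKM up to 14.7 to 19.1 FPKM, while Ptges2 and Ptgs2 lay lower with fragments and the group means of the other members were within 1.16 times of each other.

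The study's supplement lists a primer pair for Ptges, printed here because it marks a part of the transcript that can be measured by PCR.
Forward primer: cgcaacgacatggagacaatc
Reverse primer: tatccaggcgatcagagggt
The forward primer matches bases 299 to 319 of the reference transcript of 3647 bases, counted from its 5′ end, and the reverse primer matches the opposite strand at bases 366 to 385. On GRCm38 the sites are chr2:30892799-30892819 and chr2:30892733-30892752. Both are in the coding part of exon 3, the last exon of this transcript, and give a product of 87 bases. Of the 4 annotated Ptges transcripts 3 hold both sites. No PCR values of Ptges were used here.

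Ptges2, or microsomal prostaglandin E synthase-2, is a membrane-associated synthase of the same reaction. Its levels were 7.44, 8.43 and 7.78 FPKM in the controls and 4.61, 4.81 and 3.31 FPKM with cartilage fragments. All 3 stimulated libraries lay below all 3 controls, with means of 7.88 ± 0.501 FPKM and 4.25 ± 0.815 FPKM (SD, n = 3 each). The log2 difference was -0.89 (SE 0.253) with an unadjusted p of 0.00765, and it did not pass after adjustment over all genes (adjusted p = 0.278, limma). About 31 control fragments against 16 stimulated fragments gave a depth-scaled ratio of 0.54, with a counting interval of 0.276 to 1.02, so a difference was not shown at this depth.

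Ptges3, the cytosolic prostaglandin E synthase, is also known as the Hsp90 co-chaperone p23. It was the most abundant of the 3 synthases, at 68.4, 61.2 and 62.9 FPKM in the controls and 66.8, 76.9 and 74.4 FPKM with fragments. The groups overlapped, and the log2 difference of 0.18 (SE 0.113) was not called (adjusted p = 0.683, limma). Its 95% confidence interval ran from -0.08 to 0.44, which leaves no room for a change of the size of that of Ptges.

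Together the synthase transcripts shifted toward Ptges. Its share of the summed FPKM of the 3 synthases was 1.95%, 2.18% and 2.72% in the controls and 19.0%, 18.9% and 15.9% with fragments. Between the membrane synthases Ptges and Ptges2 alone, the share of Ptges was 15.6% to 20.2% in the controls and 78.4% to 81.6% with fragments. The ratio of Ptges3 to Ptges fell from a mean of 38.8 ± 6.71 to 4.36 ± 0.611 (SD, n = 3 each), so Ptges3 stayed above Ptges in every library. These shares are of transcript, not of enzyme, and they hold the rise of Ptges already given.

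Ptgs2, or cyclooxygenase-2, is the inducible cyclooxygenase and the usual partner of Ptges. It measured 4.95, 4.41 and 5.17 FPKM in the controls and 3.40, 4.26 and 3.30 FPKM with cartilage fragments. All stimulated values were below all control values, although control replicate 2 and stimulated replicate 2 differed little. The log2 difference was -0.40 (SE 0.274, 95% confidence interval -1.03 to 0.23, adjusted p = 0.706 by limma), so no rise above 1.17-fold lies within the interval. About 43 and 31 fragments in all stood behind the 2 groups.

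Ptgs1, or cyclooxygenase-1, is known as the steadily expressed form. Its levels of 9.77, 8.54 and 7.15 FPKM in the controls overlapped those of 6.56, 12.1 and 10.9 FPKM with fragments. The stimulated libraries held both the lowest and the highest value, and the difference was not called (log2 0.18, SE 0.28, adjusted p = 0.879 by limma). The sum of both cyclooxygenases was 13.3 ± 1.24 FPKM in the controls and 13.5 ± 3.25 FPKM with fragments (SD, n = 3 each). Ptgs1 made up 58.0% to 66.4% of that sum in the controls and 65.8% to 76.7% with fragments, and these ranges overlap.

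Pla2g4a, which frees the arachidonic acid, measured 11.3, 7.06 and 9.74 FPKM in the controls and 10.1, 12.1 and 9.82 FPKM with fragments. The groups overlapped and the log2 difference of 0.21 was smaller than its SE of 0.237 (adjusted p = 0.82, limma). The 95% confidence interval of the fold change, 0.793 to 1.69, includes no change and modest changes either way.

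**Figure D2:**
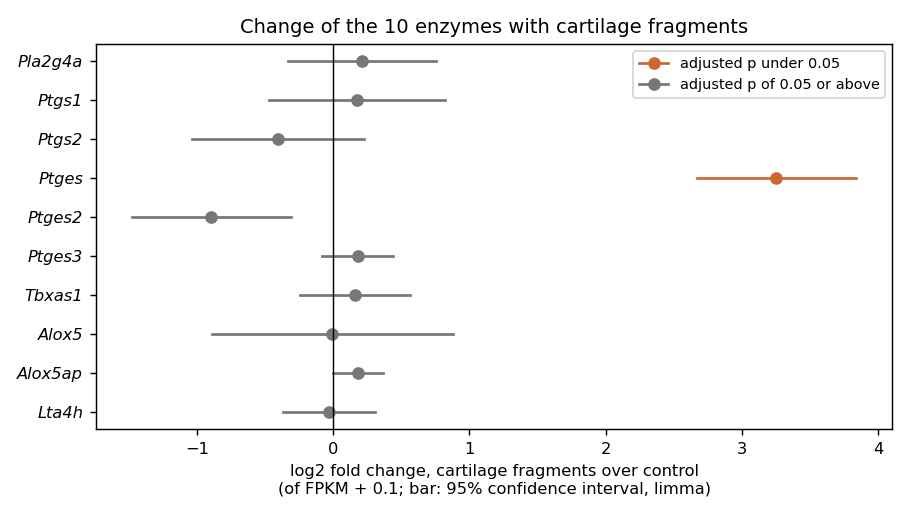
Log2 fold change of the 10 enzymes, cartilage fragments over control, of FPKM + 0.1. Points are limma estimates (n = 3 libraries per group) and bars their 95% confidence intervals. Ptges at 3.25 is the 1 member called. The interval of Ptges2 (-1.48 to -0.31) lies below 0, but its adjusted p of 0.278 does not pass.

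Tbxas1, the thromboxane synthase, competes with the prostaglandin E synthases for prostaglandin H. It stood at 43.3, 59.0 and 63.1 FPKM in the controls and 52.5, 66.1 and 64.7 FPKM with fragments, and the groups overlapped. The log2 difference was 0.16 (SE 0.175, adjusted p = 0.817 by limma). This value depends on transcripts that Cufflinks assembled in single libraries and that carry no symbol. They were joined to Tbxas1 through their shared Cufflinks gene and held up to 33.5 FPKM, in 5 of the 6 libraries but not in control replicate 1. From the reference transcript alone the levels were 43.3, 42.8 and 35.0 FPKM in the controls and 34.1, 32.6 and 35.3 FPKM with fragments, and the log2 difference turned to -0.24 (adjusted p = 0.797, limma). No direction can therefore be given for Tbxas1.

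Alox5, or 5-lipoxygenase, measured 4.96, 5.61 and 4.66 FPKM in the controls and 6.65, 6.94 and 2.76 FPKM with fragments. Stimulated replicates 1 and 2 lay above all controls and stimulated replicate 3 below them, on about 13, 13 and 5 fragments. The log2 difference was -0.01 (SE 0.384, adjusted p = 0.998 by limma), and without stimulated replicate 3 it was 0.42 (adjusted p = 0.719, limma). The interval of -0.89 to 0.88 is the widest of the 10, so fold changes from 0.539 to 1.84 lie within it.

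Alox5ap, the 5-lipoxygenase activating protein, is related to Ptges in sequence as a member of the same membrane protein family (MAPEG). It was the most abundant member, at 434, 475 and 443 FPKM in the controls and 489, 570 and 480 FPKM with fragments. The stimulated values lay above all controls, and the log2 difference of 0.18 (SE 0.08) was not called (adjusted p = 0.55, limma). In stimulated replicate 2 an assembled transcript accounted for 159 FPKM on about 40 fragments. With the reference transcripts alone this library stood at 410 FPKM, the groups overlapped, and the log2 difference was 0.03 (adjusted p = 0.946, limma). Within a library Alox5ap was 73.4 to 174 times as abundant as Alox5.

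Lta4h, the leukotriene A hydrolase, measured 61.4, 46.5 and 62.8 FPKM in the controls and 54.9, 56.3 and 54.4 FPKM with fragments. The stimulated values lay inside the range of the controls (log2 difference -0.03, SE 0.145, adjusted p = 0.971 by limma). Without the assembled transcripts the levels were 45.8, 35.9 and 62.8 FPKM against 54.9, 48.9 and 54.4 FPKM, and the difference turned to 0.17 (adjusted p = 0.818, limma). The leukotriene members thus held 1 gene whose groups did not overlap, Alox5ap, and that separation rested on an assembled transcript of 1 library.

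**Figure D3:**
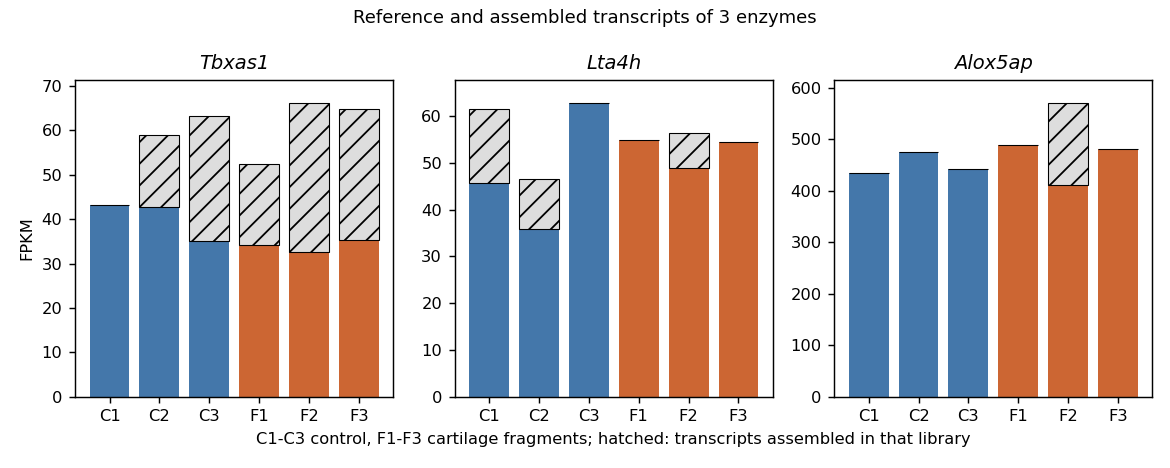
FPKM of Tbxas1, Lta4h and Alox5ap in each library (C1 to C3 control, F1 to F3 cartilage fragments). Solid bars are reference transcripts and hatched bars are transcripts assembled in that library and joined to the gene. The hatched part is missing in C1 for Tbxas1 and present only in F2 for Alox5ap, where it holds 159 FPKM; the other 7 members had none.

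Over the 10 members, the groups did not overlap for 4, namely Ptges and Alox5ap, which were higher with fragments, and Ptges2 and Ptgs2, which were lower. Of all tested genes 15.9% did not overlap, 9.04% higher and 6.89% lower. With 10 members these counts are small. Exons of Ptgs1, Tbxas1 and Alox5ap share 148, 144 and 189 bases with annotated transcripts on the opposite strand, so part of their reads may be uncertain. Exons of the other 7 members, Ptges included, share none with another annotated gene. The median log2 difference of the members was 0.17, against 0.00 over all tested genes, and at an unadjusted p under 0.05 there were 2 members, Ptges and Ptges2, where 9.19% of all tested genes passed.

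The order of the levels shows the same shift. In the controls the members ran, from high to low mean, Alox5ap, Ptges3, Lta4h, Tbxas1, Pla2g4a, Ptgs1, Ptges2, Alox5, Ptgs2 and Ptges. The ranges of Ptges3, Lta4h and Tbxas1 overlapped from neighbour to neighbour, as did those of Pla2g4a, Ptgs1 and Ptges2, and those of Alox5 and Ptgs2. Ptges stood last and apart, since its range did not meet that of Ptgs2. With cartilage fragments Ptges moved to rank 5, below Lta4h and above Pla2g4a, and its range overlapped neither. The 5 members under it, Pla2g4a, Ptgs1, Alox5, Ptges2 and Ptgs2, overlapped from neighbour to neighbour.

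Set against each of the other 9 members within the same library, Ptges was higher in all 3 stimulated libraries than in all 3 controls for all 9 pairs. The change of the log2 ratio ranged from 3.04 against Pla2g4a to 4.15 against Ptges2, and it was 3.66 against Ptgs2. The exact two-sided permutation test over the 6 libraries gave p = 0.1 for each pair, and 0.1 after Benjamini-Hochberg adjustment over the 9 pairs. That is the smallest p that 3 libraries against 3 allow, so the test could not reach the threshold of 0.05. The 9 ratios all contain Ptges, so they hold its rise already given and are not independent of each other.

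In linear terms, Ptges stood at 0.305, 0.352 and 0.382 times the FPKM of Ptgs2 in the controls and at 4.92, 4.48 and 4.45 times with fragments. Relative to Pla2g4a, Ptgs1, Ptgs2, Ptges2 and Alox5 it passed from below to above. Relative to Ptges3, Tbxas1, Alox5ap and Lta4h it remained below in every library.

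**Figure D4:**
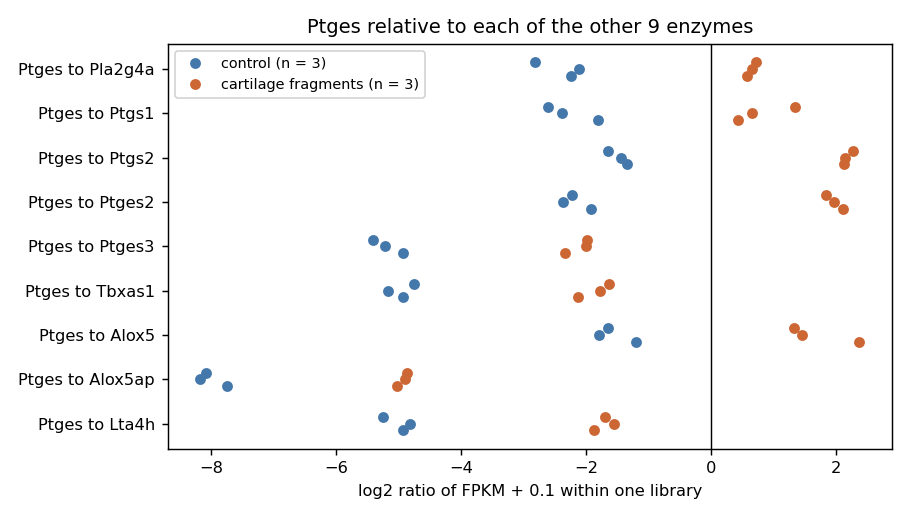
Log2 ratio of Ptges to each of the other 9 enzymes (FPKM + 0.1), with 1 point per library, controls in blue and cartilage fragments in orange (n = 3 each). The groups are apart in all 9 rows. The ratio passes 0, where both transcripts are equal, for Pla2g4a, Ptgs1, Ptgs2, Ptges2 and Alox5.

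Among the tested genes, those with the largest Pearson r with Ptges over the 6 libraries were Bax, Aldoa, Il1b, Doc2a and Adgre1, with r between 0.995 and 0.996 on the log2(FPKM + 0.1) scale. The libraries form 2 groups in Ptges, so r here mostly measures the separation of the groups and is given as a description. Il1b, the precursor of interleukin-1 beta, rose with fragments from a mean of 2.38 to 15.0 FPKM (log2 difference 2.60, adjusted p = 0.00283 by limma). Adgre1, the macrophage surface marker F4/80, rose less (0.59, adjusted p = 0.00965 by limma). Bax, which promotes cell death, and Aldoa, a glycolytic aldolase, were not called, at log2 differences of 0.18 and 0.21. Doc2a was listed at 0 in all 3 controls and was not called either.

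The members were then read against 86 other genes of eicosanoid supply, synthesis, signalling and breakdown. Of these, 51 reached a mean of 1 FPKM and were tested, and 21 were listed at 0 in all 6 libraries. One of the 51, Acsl1, was called, and it rose, where 0.366% of all tested genes were called. Groups did not overlap for 18 of the 51, of which 11 were higher and 7 lower. Over all tested genes the shares were 15.9%, 9.04% and 6.89%. The median log2 difference of the 51 was -0.03.

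The re-esterification genes return free arachidonic acid to membrane lipids, and 8 of 9 were tested. Acsl1, an acyl-CoA synthetase that activates long-chain fatty acids, measured 20.4, 15.6 and 15.8 FPKM in the controls and 48.5, 42.4 and 38.0 FPKM with fragments. All stimulated values lay above all control values (log2 difference 1.31, SE 0.177, adjusted p = 0.0304 by limma). The call held without control replicate 1 (adjusted p = 0.047) and was lost when any 1 of the other 5 libraries was left out, where limma gave adjusted p from 0.0634 to 0.175. It was also lost with reference transcripts only, at an adjusted p of 0.158 (limma) and a log2 difference of 1.13. Lpcat2, which re-acylates lysophospholipids, measured 24.5, 21.0 and 18.8 FPKM against 48.1, 32.4 and 45.7 FPKM and did not pass (log2 difference 0.95, adjusted p = 0.123 by limma). Lpcat3 had groups that did not overlap, lower with fragments, and was not called. Acsl5 lay higher in all 3 stimulated libraries with 114 FPKM in stimulated replicate 3, and without that library its log2 difference fell from 0.64 to 0.28. With reference transcripts only it was 0.13. Mboat7 was not called and changed sign with the processing.

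Of the 13 receptors 5 were tested and none was called. Cysltr1, a receptor for cysteinyl leukotrienes, measured 3.50, 4.37 and 3.95 FPKM in the controls and 11.2, 9.14 and 12.0 FPKM with fragments, and all 3 stimulated libraries lay above the controls (log2 difference 1.43, SE 0.234, adjusted p = 0.0694 by limma). Ptgir, the prostacyclin receptor, stood at 16.9 to 22.0 FPKM in the controls and at 26.6 to 30.4 FPKM with fragments (adjusted p = 0.281, limma). Ptger4, a receptor for prostaglandin E, stood at 1.78 to 3.06 FPKM and 3.31 to 5.70 FPKM (adjusted p = 0.573, limma). It rested on about 16 control and 28 stimulated fragments, and the counting interval of their ratio, 0.957 to 3.62, includes no change. The other 2 tested receptors overlapped between the groups, with log2 differences below 0.

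Among the other prostanoid synthases 5 of 9 were tested. Hpgds, which makes prostaglandin D from the substrate shared with Ptges, measured 47.9, 52.6 and 57.9 FPKM in the controls and 36.0, 34.4 and 35.0 FPKM with fragments. All stimulated values were below all controls, without a call (log2 difference -0.58, SE 0.13, adjusted p = 0.147 by limma). With reference transcripts only the log2 difference was -0.01 (adjusted p = 0.994, limma), so the difference depended on the assembled transcripts joined to the gene. With those included, about 362 control and 236 stimulated fragments fell on Hpgds. Fam213b, which is also called prostamide/prostaglandin F synthase, overlapped between the groups. Of the synthases not tested, 3 were listed at 0 in all 6 libraries.

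Of the 6 genes of transport and breakdown 5 were tested. Hpgd, the dehydrogenase that inactivates prostaglandin E, measured 12.0, 15.9 and 16.1 FPKM in the controls and 7.99, 7.41 and 8.60 FPKM with fragments. The groups were apart, with stimulated values the lower, but the difference did not pass (log2 -0.86, SE 0.204, adjusted p = 0.184 by limma), on about 50 control and 26 stimulated fragments. Ptgr2, a prostaglandin reductase, lay slightly higher in all stimulated libraries (log2 difference 0.25) and was not called. Abcc1, a leukotriene exporter, and the reductase Ptgr1 overlapped between the groups.

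Of 16 other phospholipases A2 7 were tested and none was called. Pla2g7, the platelet-activating factor acetylhydrolase and the most abundant of them, overlapped at 1087 to 1330 FPKM and 1293 to 1509 FPKM. Pnpla8 lay higher in all stimulated libraries and the lysosomal Pla2g15 lower, with log2 differences of 0.51 and -0.12. Of 11 genes of other supply routes 9 were tested and none was called. The diacylglycerol lipases Dagla and Daglb lay lower in all stimulated libraries (log2 -0.90 and -0.37), and the desaturases Fads1 and Fads2 lay higher (0.05 and 0.56), with Fads2 at 5 or fewer fragments per group of 3 libraries. Dagla rested on about 28 control and 13 stimulated fragments. The abundant Abhd12 and Plcg2 overlapped.

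Of the 8 epoxide genes 6 were tested and none was called, with Por, the electron donor of cytochrome P450 enzymes, lower (log2 -0.31) and Cyp4f13 higher (0.69) in all stimulated libraries, and Ephx1 overlapping. The 5 tested genes of the cysteinyl leukotriene steps, with Mgst2 and Dpep2 the most abundant, all overlapped. None of the 6 other lipoxygenases reached 1 FPKM. Mgst1, a relative of Ptges in the MAPEG family, stood at 381 to 386 FPKM in the controls and 382 to 421 FPKM with fragments (log2 difference 0.05, SE 0.062, adjusted p = 0.829 by limma).

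**Figure D5:**
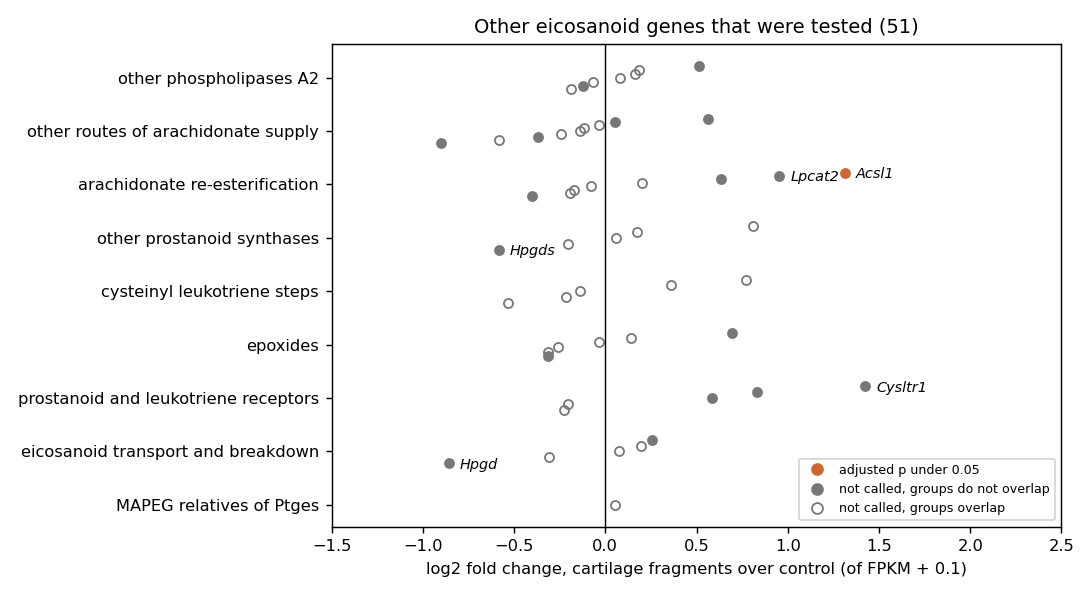
Log2 fold change (cartilage fragments over control, of FPKM + 0.1) of the 51 tested genes of the other eicosanoid lists, 1 point per gene. Filled points had groups that did not overlap and orange marks the 1 gene called, Acsl1 at 1.31. Cysltr1 at 1.43 lies farther out and did not pass.

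When estimated fragments, scaled to depth, took the place of FPKM, limma called 2.5% of all 10393 genes, 1.7% higher and 0.799% lower. Of the members it called Ptges again (log2 difference 3.19, adjusted p = 3.45e-09) and no other. Of the 51 other eicosanoid genes it called 7. Acsl1, Cysltr1, Lpcat2, Pla2g7 and Ptgir were higher, with log2 differences of 1.20, 1.43, 0.96, 0.22 and 0.58, and Hpgds and Por were lower, at -0.55 and -0.31. The number of pathway genes called thus depended on this choice, at 7 against 1, while the call of Ptges did not. The fragments of Hpgds include those of assembled transcripts, and from reference transcripts alone its FPKM gave a log2 difference of -0.01.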

How the data were processed

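RNA-seq of 6 libraries, 3 control and 3 with cartilage fragments, was used as deposited, and groups follow the sample labels. The authors made stranded mRNA libraries, sequenced them as 100-bp pairs, mapped the reads with TopHat and Bowtie (genome mm10) and estimated transcripts in every library separately with Cufflinks. The deposited FPKM are the authors' Cufflinks values per transcript, and the deposited coverage signal is the mean read depth that Cufflinks lists beside each value. Versions are not given in the sources used here, nor is the strand setting of the Cufflinks run.

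FPKM were summed per gene symbol. Assembled transcripts, which carry no symbol, were added to the 1 symbol that shares their Cufflinks gene; the alternative used reference transcripts alone, and the 2 differ for 3 members (Tbxas1, Alox5ap and Lta4h). Fragments per library (699000 to 776000) were estimated from coverage over FPKM, and fragments per gene from coverage, the read length and a mean fragment length of 210 bases, at which 93.2% to 94.7% of low values lay within 0.1 of a whole number. Genes averaging 1 FPKM or more over the 6 libraries entered the test, made with limma 3.58.1 in R 4.3.3 (trend and robust, two-sided, Benjamini-Hochberg, threshold 0.05) on log2(FPKM + 0.1), which understates changes of low genes. Of the scripts, the limma fit alone was tested on simulated data. Ratios of Ptges were compared with exact permutation tests (scipy 1.17.1, Python 3.11.15). Intervals of fragment ratios are exact conditional 95% intervals and cover counting error only.

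All 10 members are named. Other eicosanoid genes are named where called or where the groups did not overlap at a mean of at least 1 FPKM, with up to 2 more per list by level, and the 5 genes most like Ptges by Pearson r. One gene that the rule names by level is not reported here. The members and lists were chosen with earlier results of these data known. Alternatives changed the pseudocount, filter, scaling, variance moderation, sample weights, replicate block, status filter, assembled transcripts, the use of fragments, and each library. Positions are on mm10, with sequences from RefSeq (GRCm38.p6) and transcripts from GENCODE M21. The qRT-PCR and protein data of the study were not analysed here.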

Additional observations from a re-analysis of the deposited data

How the results depend on the processing

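The count of members called stayed at 1 of 10, Ptges, under all 19 alternatives, and its log2 difference ranged from 2.73 (pseudocount 1) to 3.37, with adjusted p up to 0.0374 (limma). All 9 ratios of Ptges kept groups apart under 10 alternatives. The count of other eicosanoid genes called was 1. It became 0 without trend and robust moderation, with the replicate block and with reference transcripts only, 7 with scaled fragments, and 0 to 1 when 1 library was left out. At 699000 to 776000 fragments per library, depth limits what could be called among genes of low level, such as Alox5 with 5 to 13 fragments per library.

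The replicate numbers recur in both groups, but same-numbered libraries did not deviate together (correlations -0.018, -0.0024 and 0.0099), so the numbers were not taken as pairs. With the replicate block 1 member was called, Ptges (log2 3.25), the ratios were not refitted, and the 1 pathway call, Acsl1, was lost (adjusted p = 0.0823, limma).

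Some differences that were not called changed direction, and none of them was called under the alternative. With reference transcripts only Tbxas1 stood at -0.24, Lta4h at 0.17 and Mboat7 at 0.43 (log2), where the assembled transcripts left out account for the change. With scaled fragments Alox5 stood at 0.00346 and Mboat7 at 0.10. Alox5 stood at 0.011 with pseudocount 1 and at 0.016 with sample weights, and Mgst1 at -0.022 with quantile normalization. When 1 library was left out, the log2 difference ranged from -0.0062 to 0.27 for Tbxas1, -0.23 to 0.42 for Alox5, -0.17 to 0.046 for Lta4h, -0.093 to 0.057 for Abhd12, -0.39 to 0.051 for Mboat7, -0.42 to 0.14 for Mgst2 and -0.16 to 0.11 for Ephx1. Apart from assembled transcripts and left-out libraries, the cause was not tested.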
